A study of Mus musculus with 2 samples.

Results

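The 80 cells described here were the 40 highest in each of 2 single-cell libraries of mouse pancreatic tumours by a score over 9 immediate early and heat shock genes. They were taken from 1660 cells, 951 of the EL1 library and 709 of the WTg library, which themselves came from 3109 barcodes (1621 and 1488). A cell was counted with at least 500 genes, at least 5000 unique molecular identifiers (UMIs, 1 per captured RNA molecule) and at most 20% mitochondrial UMIs, and 24 EL1 cells and 39 WTg cells with at least 0.1% of their UMIs from C1qa, C1qb, C1qc and Tyrobp were left out as macrophage-like. The score was the mean, over Fos, Fosb, Egr2, Egr4, Atf3, Klf2, Hspa1a, Hspa1b and Socs3, of the natural log of 1 plus the UMIs per 10000. Since those 9 genes chose the cells, their levels are a description of the choice and carry no test.

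The EL1 library came from pancreas of the strain EL1-Luc/EL1-Tag on an FVB/N background, in which firefly luciferase and SV40 T antigen are driven by the elastase I promoter, a promoter of pancreatic acinar cells. The WTg library came from the same strain crossed with CAG-Mettl3, a transgene for the m6A RNA methyltransferase Mettl3 made in BL/6 mice, so the transgene and part of the strain background cannot be told apart. Both were from animals of 6 weeks, labelled as primary epithelial cells and measured with 10x Genomics droplets, and the number of animals behind each was not given. With 1 library per group no difference between the groups, and no difference between these cells and the rest, could be tested, and the intervals given are exact 95% intervals for counting error only.

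Immediate early genes are switched on within minutes of a signal without new protein synthesis, mostly by transcription factors already present in the cell, such as SRF at CArG boxes and CREB at cyclic AMP response elements. Their products include the AP-1 subunits of the Fos and Jun families, the zinc finger factors of the Egr and Klf families, and short-lived regulators that end the signal, such as Socs3, Dusp1 and Zfp36. Hspa1a and Hspa1b encode the stress-inducible HSP70 chaperone and are switched on by HSF1 when proteins unfold.

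The sequences before the starts of the scoring genes are shown for the HSP70 pair and, as examples, for Fos, Egr4 and Atf3. The stretches of these 3 examples hold TGACG, the core of the cyclic AMP response element (capitals, either strand). Those of Fosb, and of Egr2 at some of its starts, hold it too and are not shown. The sequences shown are the 160 bases before the RefSeq start, read 5′ to 3′ along the gene, in GRCm38.p6.
Fos (chr12:85473730-85473889, + strand): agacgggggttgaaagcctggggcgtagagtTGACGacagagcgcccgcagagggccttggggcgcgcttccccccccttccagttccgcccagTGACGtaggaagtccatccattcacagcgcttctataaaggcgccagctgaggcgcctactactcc
Egr4 (chr6:85513590-85513749, - strand): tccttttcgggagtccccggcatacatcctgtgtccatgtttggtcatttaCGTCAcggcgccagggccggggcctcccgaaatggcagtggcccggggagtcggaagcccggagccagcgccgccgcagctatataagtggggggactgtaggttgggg
Atf3 (chr1:191183334-191183493, - strand): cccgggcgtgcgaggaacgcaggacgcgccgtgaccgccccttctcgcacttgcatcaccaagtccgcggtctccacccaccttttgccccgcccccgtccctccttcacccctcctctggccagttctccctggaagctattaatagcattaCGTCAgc
In windows from 250 bases before to 50 bases after the start, TGACG stood in 6 of the 9 scoring genes and in 23.0% of 27025 genes. The full element TGACGTCA stood in 0 of the 9 and in 2.03% of all genes. The CArG box stood in 1 of the 9, Egr2, and in 1.81% of all genes. The heat shock element of 3 inverted GAA units (either strand) stood in none of the 9 and in 0.66% of all genes. A match is only a match of letters in this window. Only these exact patterns were searched, so a gene without a match may still hold an imperfect or more distant element.
For the HSP70 pair, the capital marks the only base at which the 160 bases differ.
Hspa1a (chr17:34972157-34972316, - strand): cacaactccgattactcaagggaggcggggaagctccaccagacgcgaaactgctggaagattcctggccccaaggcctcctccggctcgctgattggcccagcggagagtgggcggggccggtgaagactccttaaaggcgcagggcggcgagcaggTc
Hspa1b (chr17:34959239-34959398, - strand): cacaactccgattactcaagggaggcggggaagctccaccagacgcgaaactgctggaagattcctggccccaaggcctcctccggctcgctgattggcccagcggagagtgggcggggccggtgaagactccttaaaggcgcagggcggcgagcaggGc
Their transcripts are also alike. Of the 50-base stretches of the Hspa1a coding sequence, 82.3% are found in Hspa1b, but 0 of 761 stretches after its stop codon are, so reads from the ends of the transcripts can tell them apart and reads from the coding part mostly cannot. How the counting treated such reads is not given in the sources used here, so the split of UMIs between the pair is uncertain.

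The score ran down without a break at the 40th cell. In EL1 the highest score was 3.29, the median of the 40 was 2.07, the 40th cell had 1.44 and the next had 1.43, and in WTg these were 3.15, 1.72, 1.18 and 1.15. The other cells had a median of 0.33 in EL1 and 0.23 in WTg. A score above 2 was reached by 22 of the 40 EL1 cells and 12 of the 40 WTg cells, and a score above 1 by 82 of 951 EL1 cells, 8.62% with an interval of 6.92 to 10.6, and by 48 of 709 WTg cells, 6.77% with one of 5.03 to 8.88, so the intervals overlap. With the same number of cells taken from each library, the WTg members reach down to lower scores. Of the 80 highest cells of both libraries together, 48 were EL1 cells.

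**Figure D1:**
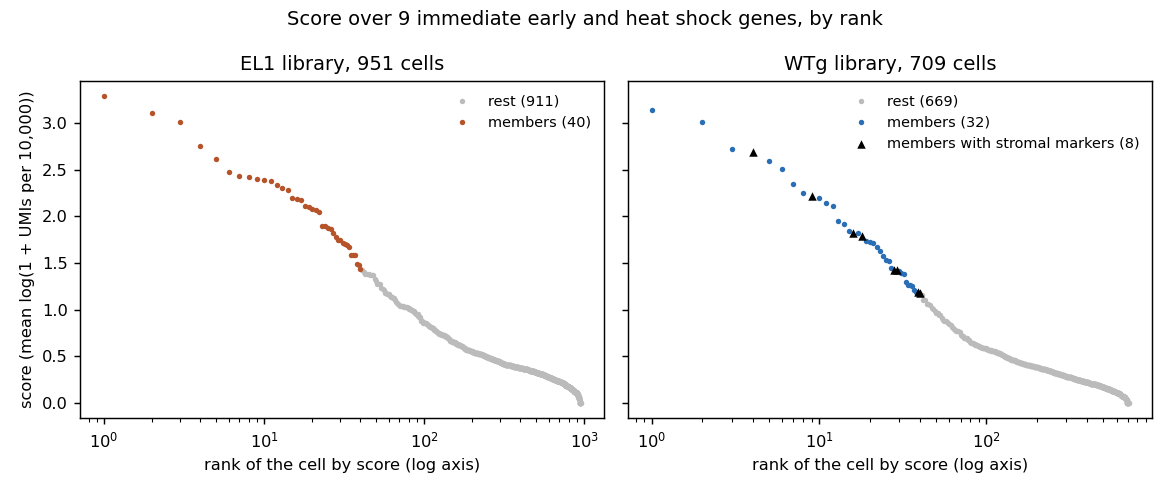
Score of every cell (y axis) against its rank in its library (x axis, log scale); colour marks the 40 chosen cells, grey the rest, and black triangles the 8 WTg cells with stromal markers. Scores fall smoothly through the 40th cell, at 1.44 in EL1 and 1.18 in WTg.

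The chosen cells had somewhat fewer UMIs than the rest. Their median was 25988 UMIs in EL1 and 36954 in WTg, against 30432 and 39764 in the rest, and their median mitochondrial share was 3.84% and 3.32%, against 4.14% and 3.85%. Across cells, Spearman's rho of the score with UMIs was 0.06 in EL1 (n = 951) and -0.03 in WTg (n = 709), a description over cells of 1 library. No barcode was shared by the 2 libraries among these cells, although 15 were among all barcodes, and 1 EL1 member and 0 WTg members were called doublets. Mettl3 gave 15.5 CPM, which is 100 times the UMIs per 10000, in the EL1 members (9.31 to 24.2) and 80.3 in the WTg members (67.1 to 95.4), the order the transgene label gives.

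The label of tumour cells went against the markers of 8 of the 40 WTg members. Those 8 (20%, exact binomial interval 9.05 to 35.6) had at least 0.1% of their UMIs and 3 genes from a list of endothelial (6 cells), fibroblast (4) or pericyte and smooth muscle markers (4), with some cells in more than 1 list. No EL1 member did, which allows up to 8.81%. The highest of them, the fourth WTg cell, held 456 UMIs of the pericyte gene Rgs5 and 27 of Cdh5, the endothelial cadherin, with 0 UMIs of Krt8, Krt18 and Epcam. The WTg cell of rank 28 also held both, with 312 and 68 UMIs. Whether barcodes in more than 1 list held more than 1 stromal cell was not tested beyond the doublet calls. All 8 had 0 UMIs of Epcam, and 6 of the 8 had Krt8 or Krt18, at no more than 2 UMIs of either. Acinar genes gave 0.03% to 0.56% of UMIs in the 8, against 3.28% to 34.8% in the other 32. Every one of those 32, and of the 40 EL1 members, had Krt8 or Krt18, the epithelial keratins. Mettl3 stood at 9.97 CPM in the 8 cells (3 UMIs, 2.06 to 29.1) and at 96.5 in the 32 (80.4 to 114.9). Cells with stromal markers were few in WTg: of 10 in the library, 8 were members and the other 2 ranked 43 and 50. The one such EL1 cell ranked 108. WTg lists, and genes where it bears on them, are therefore also given for the 32 members without these 8, a step chosen after the data were seen.

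Fos, the AP-1 subunit, was the most abundant scoring gene. EL1 members ranged from 1.60 to 192 UMIs per 10000 with a median of 64.8, against a median of 0.38 in the rest, and WTg members from 0 to 123 with a median of 25.7, against 0.25. The members and the rest overlapped, since the highest cell of the rest reached 118 in EL1 and 31.2 in WTg. Summed over cells, Fos was at 7674 CPM in EL1 members and 127 in the rest, a log2 ratio of 5.91 (5.86 to 5.97), and at 3198 and 69.1 in WTg, a log2 ratio of 5.53. Fosb, a Fos relative, had a median of 32.9 per 10000 in EL1 members (5.59 to 137) and 18.97 in WTg members (0.64 to 54.7). Atf3, a stress-induced factor of the CREB family, had medians of 42.4 and 22.6. Klf2, a zinc finger factor best known from endothelium and lymphocytes, had medians of 20.8 and 6.88, and Socs3, an inhibitor of JAK kinases, 7.96 and 4.61. These 5 genes were spread over nearly all members, with 39 or 40 of 40 cells positive in each library. Egr2, another scoring gene, had UMIs in 75.0% of EL1 and 82.5% of WTg members, against 28.2% and 30.3% of the rest.

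Egr4, Hspa1a and Hspa1b were unevenly spread over the members. Egr4, a zinc finger factor of neurons and endocrine cells among others, had UMIs in 14 EL1 and 12 WTg members, and 1 cell held 32.7% and 54.1% of them. The HSP70 pair was absent from 20 EL1 and 17 WTg members. More than 5 UMIs per 10000 of the pair were seen in 14 EL1 members (35.0%, 20.6 to 51.7), against 0.66% of the rest of EL1, and in 17 WTg members, against 0.30% of the rest. All 8 WTg members with stromal markers were among those 17, from 5.93 to 128 per 10000, and 9 of the other 32 were (28.1%, 13.7 to 46.7). Of the 2 cells with stromal markers that were not members, 1 had 25.1 Hspa1a and 19.1 Hspa1b per 10000 and the other had 0 of both. Without the 8 cells, the log2 ratio of members over rest fell from 5.93 to 5.28 for Hspa1a and from 6.42 to 5.69 for Hspa1b.

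**Figure D2:**
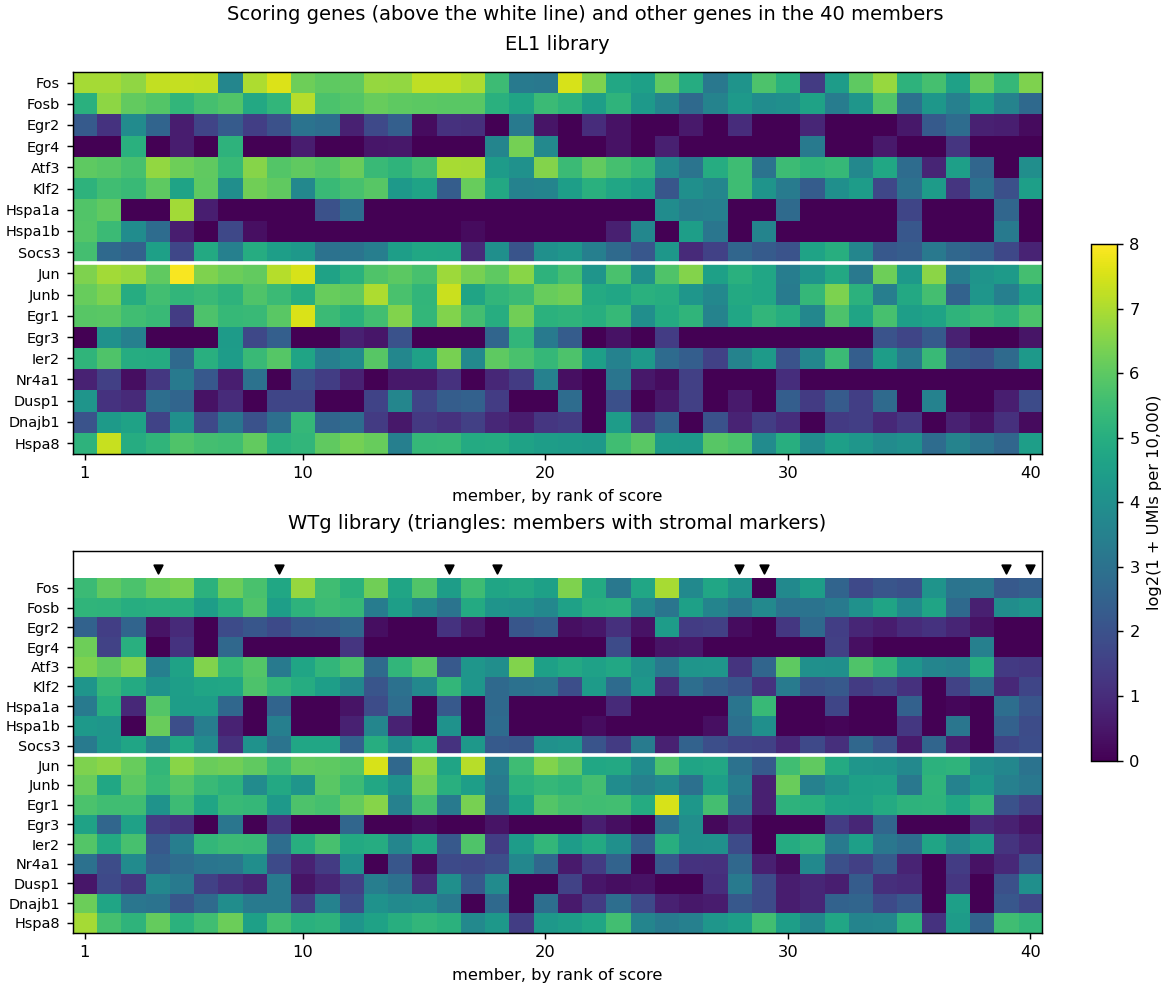
Level of each gene (rows) in each of the 40 members of a library (columns, by rank), as log2 of 1 plus UMIs per 10000; the white line parts the 9 scoring genes from 9 others, and triangles mark the 8 WTg members with stromal markers. Fos, Fosb, Atf3, Jun, Junb and Egr1 are high in most members. Egr4 is above 5 UMIs per 10000 in 6 EL1 and 4 WTg members, and the HSP70 pair in 14 and 17.

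Correlations among the members differed between pairs of scoring genes. Among the 40 EL1 members, Spearman's rho was 0.65 for Fosb with Atf3, 0.50 for Fos with Klf2 and 0.04 for Fos with Hspa1a, and among the 40 WTg members 0.44, 0.57 and -0.01. Hspa1a and Hspa1b correlated at 0.38 and 0.87. Fos with Egr4 gave -0.29 in EL1 members and 0.11 in WTg members. In the rest of EL1 and WTg, Fosb with Atf3 gave 0.24 and 0.37, Fos with Klf2 0.19 and 0.13. Fos with Hspa1a gave 0.05 and 0.07 there, and the HSP70 pair 0.30 and 0.14. Members share a library and were chosen by a sum of the same genes, which itself shifts these correlations. They are a description only and do not show separate arms of the score. All 9 genes together had UMIs in 1 EL1 and 6 WTg members.

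The share of cells with a UMI depends on depth, so it was also read with every cell thinned to 5000 UMIs. Fos then had a UMI in all 40 EL1 members and in 26.8% of the rest (65.1% unthinned), and in 92.5% of WTg members and 21.97% of the rest (62.3% unthinned). Hspa1a had a UMI in 27.5% and 42.5% of members and in 2.85% and 0.90% of the rest. For Egr2 these were 45.0% and 45.0% of members and 6.81% and 5.38% of the rest. As a background from free RNA, 41 EL1 and 35 WTg barcodes rich in haemoglobin held 0 UMIs of Fos, but at median depths of 1354 and 2473 UMIs this allows up to 43.5 and 34.4 CPM. Barcodes over 20% mitochondrial UMIs, which are not among the cells here, had Fos at 142 and 107 CPM and Hspa1a at 254 CPM in EL1 and 22.1 in WTg.

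Between libraries, members carried less Fos and Klf2 in WTg than in EL1. Both are scoring genes, and the rule let WTg members reach down to a score of 1.18, against 1.44 in EL1. Their levels in members therefore also follow the choice of cells. The log2 ratio of WTg over EL1 members was -1.26 for Fos (-1.31 to -1.21) and -1.31 for Klf2 (-1.39 to -1.22), and -1.10 and -1.16 without the 8 cells. The rest of the cells differed the same way, by -0.88 and -0.84. Nr4a1 and Arc were higher in WTg members, by 1.64 (1.38 to 1.91) and 1.81 (1.55 to 2.07), and in the rest by 1.19 and 0.97. Dnajb1 was higher in WTg members by 1.03 (0.88 to 1.17) and lower in the rest of WTg by 0.31 (log2 -0.31). One cell held 26.0% of the Dnajb1 UMIs of WTg members, and one 19.4% of those of EL1 members. None of these differences has a replicate.

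Genes outside the score are described by the log2 ratio of their summed share in members over the rest, for genes with at least 100 UMIs in a library. Over all such genes, 6.75% of 10867 in EL1 and 10.2% of 10465 in WTg reached a log2 ratio of at least 1, and 4.0% and 2.50% reached -1 or less. Without the 8 cells the WTg shares were 7.87% and 2.88%. The median of all genes was 0.10 in EL1 and 0.15 in WTg. In both libraries, 2.41% of genes reached 1 and 0.512% reached -1 or less. Because cells were chosen on genes that move with these, the counts describe the cells and test nothing.

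Other immediate early genes were higher in the members of both libraries. Of 31, 16 in EL1 and 22 in WTg reached a log2 ratio of 1, with medians of 1.003 and 1.48, and 0 and 1 reached -1. Without the 8 cells, WTg had 19 and a median of 1.42. Jun, the main partner of Fos, had a median of 52.9 per 10000 in EL1 members (8.40 to 241) against 6.10 in the rest, and of 41.1 in WTg members (3.82 to 182) against 4.85. Its log2 ratios were 2.99 (2.95 to 3.02) and 2.94 (2.90 to 2.98). Junb, another AP-1 subunit, stood at 2.85 and 2.96, and Egr1, the best known Egr factor, at 2.38 and 2.37. Klf4 and Klf6, zinc finger factors, stood at 2.999 and 3.16 in EL1 and 2.89 and 2.64 in WTg. Zfp36, which marks AU-rich messages for decay, stood at 2.76 and 2.93, and Ier2 at 2.50 and 2.71. Nr4a1, an orphan nuclear receptor, stood at 2.80 and 3.25 but from 23 and 37 cells. Npas4, a factor induced by calcium in neurons, stood at 2.68 and 3.46 from 13 and 16 cells. In the 32 WTg members, the ratios were 3.17 for Jun, 3.13 for Junb, 2.63 for Egr1, 2.36 for Klf4, 2.84 for Klf6, 3.12 for Zfp36, 2.99 for Ier2, 3.31 for Nr4a1 and 3.76 for Npas4.

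Some immediate early genes stayed below a log2 ratio of 1 in 1 or both libraries, or fell below it without the 8 cells. Fosl1, a Fos relative induced later, was lower, at -0.98 (-1.47 to -0.52) in EL1 and -1.12 (-1.59 to -0.68) in WTg. Ier5 stood at -0.15 and 0.34, and Klf10 at 0.04 and 0.59. Arc, a cytoskeletal protein of neurons, stood at 0.29 in EL1 and 1.13 in WTg. Srf, the factor that binds CArG boxes, stood at 0.20 and 1.10, so both genes reached 1 in WTg only. Ccn1, a secreted matrix protein, stood at 2.77 in WTg but at -1.10 without the 8 cells.

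**Figure D3:**
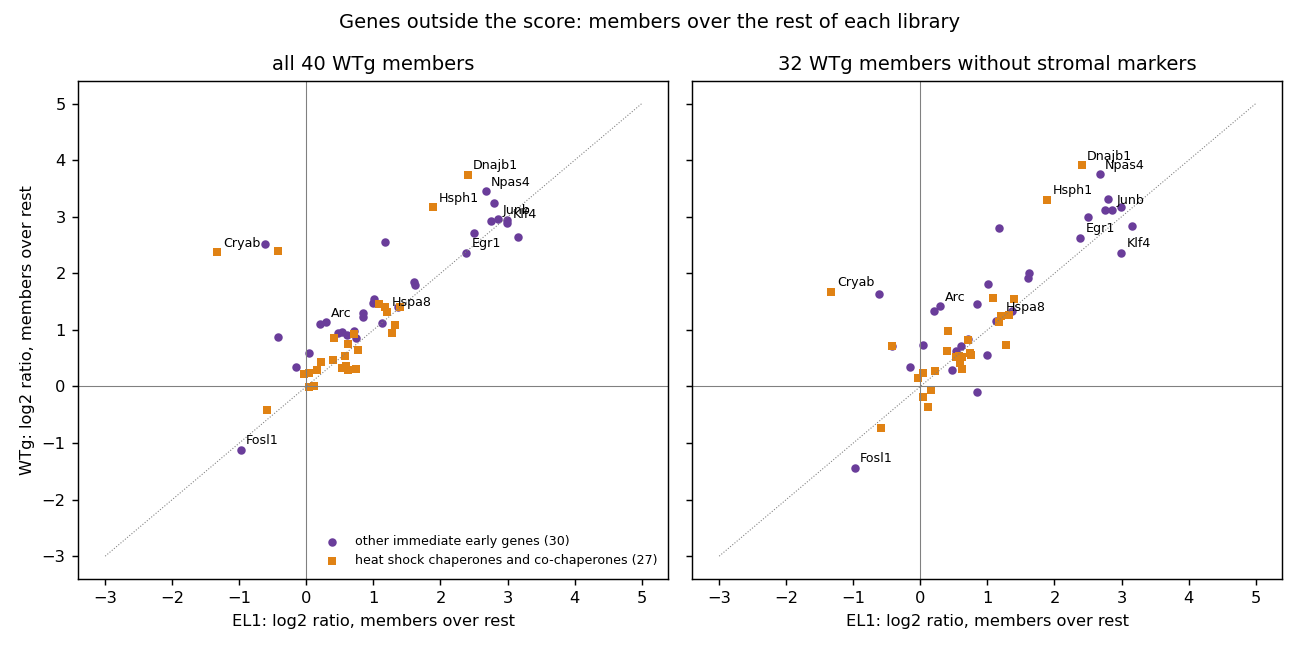
Log2 ratio of members over rest for genes outside the score, EL1 on the x axis and WTg on the y axis, with all 40 WTg members (left) and the 32 without stromal markers (right); circles are 30 immediate early genes, squares 27 heat shock genes, the dotted line marks equal ratios. On the left, Junb, Egr1 and Klf4 lie near the line at 2 to 3, Dnajb1 and Hsph1 above it, and Fosl1 below 0 in both libraries.

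Chaperones other than the scoring pair were higher by less. Of 27 heat shock genes in EL1, 8 reached 1 with a median of 0.58, and of 28 in WTg, 10 with a median of 0.70 (8 and 0.61 without the 8 cells). Dnajb1, the main partner of inducible HSP70, had a median of 1.58 per 10000 in EL1 members against 0.49 in the rest, and 3.61 in WTg members against 0.37. Its log2 ratios were 2.41 (2.27 to 2.54) and 3.74 (3.64 to 3.84). One cell, the highest WTg member, carried 26.0% of the WTg members' Dnajb1. Hsph1, an HSP110 exchange factor, stood at 1.89 and 3.17. Constitutive Hspa8 stood at 1.20 and 1.32, Hsp90aa1 at 1.33 and 1.09, and Hspb1, a small heat shock protein, at 1.39 and 1.41. Hsf1 itself stood at 0.62 and 0.29. Cryab, a small chaperone, and Bag3, an HSP70 co-chaperone, stood at -1.33 and -0.42 in EL1 and at 2.38 and 2.40 in WTg (1.68 and 0.71 without the 8 cells). Serpinh1, the collagen chaperone, had 0 UMIs in EL1 members and stood at 4.54 in WTg, 0.97 without the 8 cells.

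Within the integrated stress response, 5 of 18 genes in EL1 and 5 of 20 in WTg reached 1, with medians of 0.53 and 0.39 (6 of 20 and 0.48 without the 8 cells). Ddit3, a factor linked to cell death under stress, stood at 2.51 and 1.80, and Ppp1r15a, which reverses eIF2α phosphorylation, at 2.09 and 2.34. The amino acid genes Asns and Psat1 stood at -0.11 and -0.26 in EL1 and -0.22 and -0.20 in WTg. None of 19 genes of the unfolded protein response of the endoplasmic reticulum reached 1 in either direction, with medians of 0.04 and -0.14, the latter 0.03 without the 8 cells. In the p53 list, 8 of 17 in EL1 and 6 of 15 in WTg reached 1, with medians of 0.42 and 0.17 (0.22 without the 8 cells), among them Bbc3, a death gene, at 2.10 and 1.97, while Cdkn1a, the cell cycle inhibitor, stood at -0.02 and -0.61.

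Feedback genes and inflammatory targets gave other values without the 8 cells. In the MAP kinase feedback list, 10 of 23 genes in EL1 reached 1 and 5 reached -1, and in WTg 13 and 1 of 21, with medians of 0.37 and 1.49. Without the 8 cells the WTg median was 0.42, and 8 of 20 genes reached 1 and 3 reached -1. Dusp1, a phosphatase that ends MAP kinase signals, stood at 2.86 and 3.27 (2.20 without the 8), and Spry1, a receptor kinase inhibitor, at 2.57 and 3.77 (3.32). Dusp6, the ERK phosphatase, stood at 4.09 in WTg and at -1.93 without the 8 cells. In the JAK-STAT list, 5 of 15 and 8 of 15 genes reached 1 (7 of 14 without the 8), and Irf1, an interferon-regulated factor, stood at 3.44 (3.20 to 3.67) and 4.43 (4.20 to 4.66, and 4.63 without the 8), though 1 cell held 33.0% of its EL1 member UMIs. Its median was 0.59 per 10000 in EL1 members and 0.91 in WTg members, against 0 in the rest of both. The lists overlap: Irf1 is also in the NF-kB list, and Junb is in both the JAK-STAT and the immediate early list. Their counts are therefore not separate results. Of the targets of NF-kB, an inflammatory factor, 4 of 15 genes in EL1 and 13 of 17 in WTg reached 1, with medians of 0.10 and 1.82, and without the 8 cells 7 of 16 did, with a median of 0.88. The chemokines Ccl2 and Cxcl1 stood at 5.12 and 5.72 in WTg and at -2.25 and -2.71 without the 8 cells. The feedback inhibitors Nfkbia and Tnfaip3 kept 1.70 and 2.98 there.

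**Figure D4:**
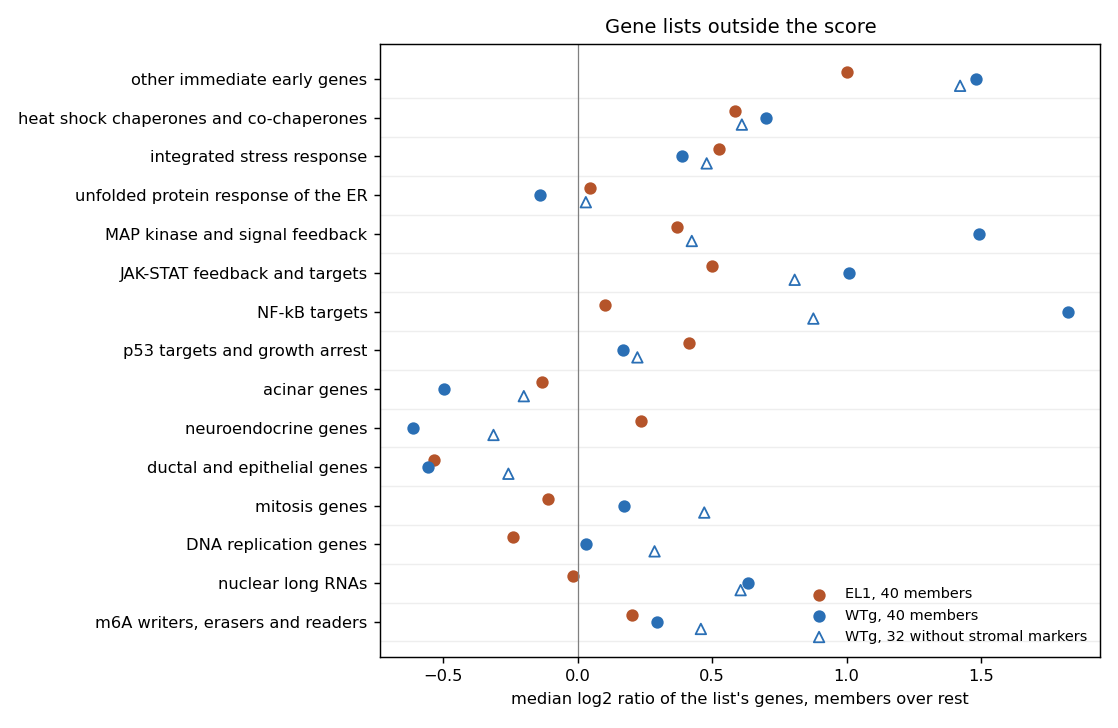
Median log2 ratio of members over rest (x axis) for each gene list outside the score other than markers of other cell types (rows); filled circles are all 40 members of EL1 and WTg, open triangles the 32 WTg members without stromal markers. The immediate early median is 1.003 in EL1 and 1.48 in WTg, and the NF-kB median in WTg falls from 1.82 to 0.88 without the 8 cells.

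Epithelial genes of the pancreas were detected in the members of both libraries. Acinar genes, such as the proteases of digestive juice, gave a median of 16.8% of UMIs in EL1 members and 15.5% in the rest, and their median log2 ratio was -0.13. In WTg they gave a median log2 ratio of -0.50, and of -0.20 without the 8 cells. Neuroendocrine genes had medians of 0.24 in EL1 and -0.61 in WTg (-0.31 without the 8). Ductal and epithelial genes were at -0.54 and -0.55 (-0.26). Mitosis genes stood at -0.11 and 0.17 (0.47 without the 8, where 3 of 20 reached 1), DNA replication genes at -0.24 and 0.03 (0.29), and m6A writers, erasers and readers at 0.20 and 0.30 (0.46). Nuclear long RNAs, which rise with the nuclear share of a cell's RNA, stood at -0.02 and 0.63 (0.61).

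Markers of other cell types followed the 8 cells. Of 14 endothelial markers, 11 were at 0 in the EL1 members and 0 in the WTg members, where 11 of 11 with enough UMIs reached 1, with a median of 6.32. Without the 8 cells, 9 of the 14 were at 0 and the median of the 3 left was -0.30. Of 12 fibroblast markers 11 were at 0 in EL1 members and 2 in WTg members, and of 12 pericyte and smooth muscle markers 8 and 0, with WTg medians of 5.04 and 6.41. Macrophage markers, some of which the rule used, stood at -2.02 and -1.66. Neutrophil, T or NK, B, mast and red blood cell markers had 0 to 3 genes with enough UMIs, and no member passed the marker limit for any of them.

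By the rule of size, several genes were low in the members of both libraries. F3, tissue factor, stood at 61.1 CPM in EL1 members against 484 in the rest, a log2 ratio of -2.99 (-3.33 to -2.66), and at 47.9 against 365 in WTg, -2.93 (-3.27 to -2.61). Srxn1, which restores oxidised peroxiredoxins, stood at -1.82 and -1.92, Fjx1 at -1.88 and -1.76, and Rrad, a small GTPase, at -1.90 and -1.72. Reg3a, a secreted lectin, stood at -3.34 and -1.65, Gm11716 at -1.58 and -3.25, and Penk, the enkephalin precursor and 1 of the neuroendocrine genes, at -2.38 and -2.05, all from at most 11 UMIs in members. C1qa was also low, and its UMIs were part of the rule for leaving cells out. Among genes under 0.5 in WTg, the highest in EL1 members were Gm8251 at 3.52, Cntnap4 at 2.39, Tppp3 at 2.06, Gm26621 at 2.03 and Tnik at 1.84. In WTg these stood at -0.89, 0.14, 0.43, 0.29 and -0.37. Cntnap4, Gm26621 and Tnik had only 21, 15 and 17 UMIs in EL1 members. One cell held 40.8% of the EL1 member UMIs of Gm8251, and one 35.7% of those of Tppp3. The EL1 and WTg intervals overlapped for Gm26621 (1.15 to 2.82 and -1.06 to 1.39) and for Tnik (1.02 to 2.57 and -2.28 to 1.03). High in WTg members only were Igfbp7 at 7.12, Col4a2 at 5.65, Col4a1 at 5.51, Pakap at 5.27 and Pde4b at 4.53, genes of vessel walls and of signalling. Without the 8 cells these were at -3.15, -0.04, 0.31, 0.27 and 1.77.

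Clusters of all 1660 cells, built without the scoring, other immediate early and heat shock genes, are given by number. In EL1, 20 of the 40 fell in cluster 9, which held 48 EL1 cells (41.7%, 27.6 to 56.8), and which was not named by cell type, its leading genes being Fos, Klf2, 2210010C04Rik and Atf3. None of the 23 WTg cells of cluster 9 were members, which allows up to 14.8%, and their median score was 0.08 at a median of 11374 UMIs, against 1.04 at 21510 UMIs in its EL1 cells. Another 8 EL1 members were in cluster 2, neuroendocrine-like with 200 EL1 cells, 4 in cluster 3, led by histone and mitosis genes, and 3 each in clusters 4 and 5. In WTg, 18 members were in cluster 0 (acinar-like, 279 WTg cells, 6.45%, 3.87 to 10.0), 7 in cluster 3, 6 in cluster 14 (endothelial-like, 7 cells) and 4 in cluster 6 (acinar-like). The 2 WTg cells that fell in cluster 2 were both members, of ranks 1 and 3. The 2 WTg members in cluster 1 were cells with fibroblast markers.

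**Figure D5:**
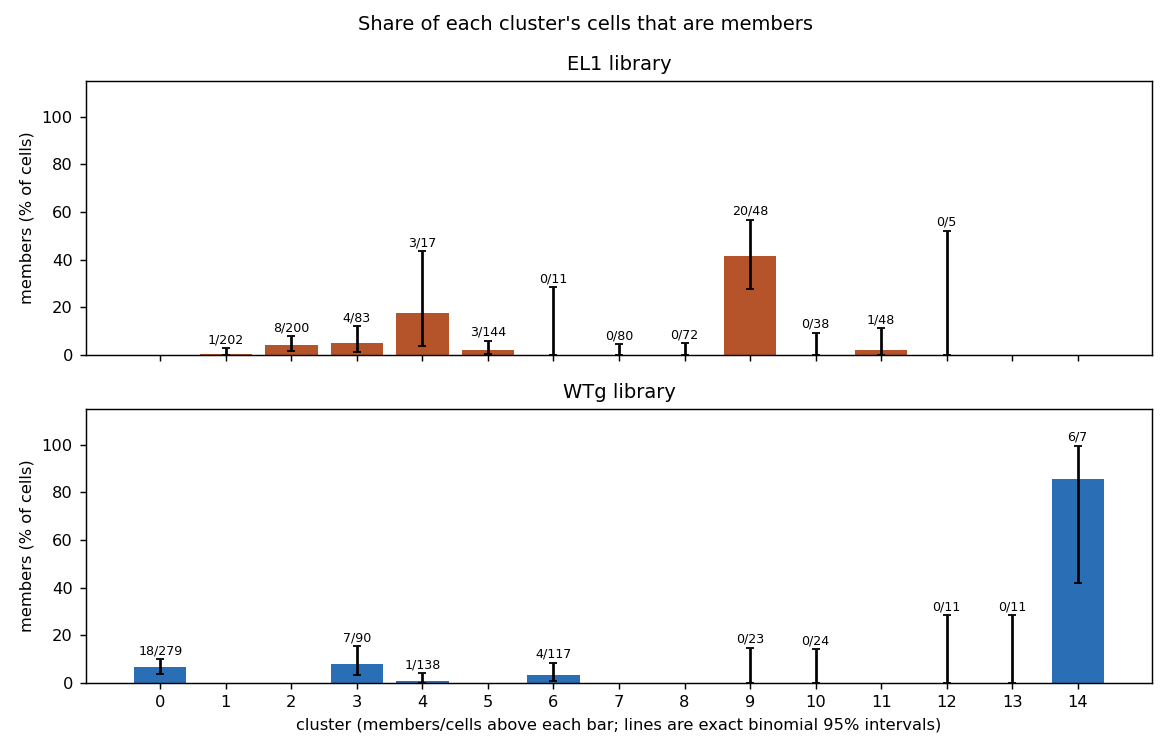
Share of each cluster's cells that were members (y axis, percent), for clusters with at least 5 cells of the library; lines are exact binomial 95% intervals, and members over cells are printed above each bar. In EL1 the highest share is 20 of 48 in cluster 9, and in WTg 6 of 7 in cluster 14.

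Egr4 was carried by few cells in each cluster. Among EL1 members it was at 1001 CPM in cluster 2, 1976 in cluster 4 and 960 in cluster 5, and at 3.73 in cluster 9. More than 5 Egr4 UMIs per 10000 were seen in 3 of 8 members of cluster 2, 1 of 3 of cluster 4 and 2 of 3 of cluster 5, and 181 of the 183 Egr4 UMIs of cluster 4 came from 1 cell. Hspa1a was at 978 CPM in cluster 2 and 670 in cluster 9, with 0 UMIs in clusters 3, 4 and 5. In cluster 2, 2 of 8 members had more than 5 Hspa1a per 10000. Hspa1b, whose split from Hspa1a is uncertain, had the other order, at 338 CPM in cluster 2 and 797 in cluster 9. It had 2 UMIs in cluster 3, 12 in cluster 4 (130 CPM) and 0 in cluster 5. The 2 highest EL1 cells, both of cluster 9, had 55.3 and 65.1 Hspa1a per 10000 and no Egr4, while the third, of cluster 2, had 33.0 Egr4, no Hspa1a and 13.9 Hspa1b. Of the members above 5 Egr4 per 10000, 1 of 6 in EL1 and 2 of 4 in WTg were also above 5 for the HSP70 pair. The highest WTg cell, of cluster 2, had 73.8 Egr4, 8.52 Hspa1a and 73.0 Dnajb1 per 10000. Within a single cluster the other immediate early genes were also higher in members. Members there are again the cells of higher score by the rule, so this describes the choice and is no check of it. In EL1 cluster 9 their median log2 ratio was 1.29 over 24 genes (20 members against 28 cells). In WTg cluster 0, which holds no member with stromal markers, it was 1.55 over 31 genes (18 against 261). These medians took genes with at least 30 UMIs, so they are not a like match for the library medians.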

How the data were processed

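The authors made the deposited counts, whole UMIs per gene and barcode, from 10x Genomics 3′ v3.1 libraries. The file headers name Cell Ranger 6.0.2, and the submitters' processing notes name genome GRCm38, R 4.1 and Seurat 4.0.5. Whether introns were counted is not given in the sources used here. The members and gene lists were chosen with earlier results of these data known.

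Counts were summed over members and over the rest of the same library, each divided by all UMIs of those cells and given as CPM. Ratios have exact conditional binomial intervals, levels exact Poisson and shares Clopper-Pearson intervals at 95%. Genes with at least 100 UMIs were compared, or at least 30 UMIs within a single cluster, and a list was summarised by the median over its genes. Ratio scripts were tested on simulated data. Cells were clustered with scanpy 1.11.5 and leidenalg 0.10.2 at resolution 1, on 2000 variable genes and 30 components, with no correction between libraries, and intervals came from scipy 1.17.1. Doublets were called with Scrublet and kept in the main result. Thinning drew 5000 UMIs from every cell. Beside the scoring and list genes, the text names by size the 12 highest and 8 lowest genes in both libraries and the 5 highest in either alone, and Mettl3 as a check of the labels. Alternatives changed the score, the cell limits, the number of members, the weighting, the gene minimum and the clustering.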

Additional observations from a re-analysis of the deposited data

How the results depend on the processing

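Of 195 values of the main results under an alternative, 155 kept within the spread set for them and 40 moved. No paired analysis was possible because there was a single library of either genotype, which also left none to leave out. The median of the other immediate early genes in EL1, 1.003, was 1.55 with the 20 highest cells, 0.56 with 80, 1.11 with a score without Hspa1a and Hspa1b, 1.09 with at least 1000 UMIs, 1.07 with cells of other types left out first, 1.10 without doublets, 1.16 with cells weighted equally and 0.94 with the rest weighted to the members' clusters. Genes at a log2 ratio of 1 or more in EL1, 733, numbered 1343 with 20 cells, 454 with 80, 1144 at 30 UMIs per gene and 337 at 300. In WTg, 1071 became 698 with other types left out first, 1747 at 30 UMIs and 504 at 300.

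The acinar median in EL1, -0.13, was -0.19 thinned, -0.64 with 20 cells, -0.25 with 80, -0.22 without the HSP70 pair in the score, -0.27 without Fos and Fosb, -0.18 at 1000 UMIs, -0.16 at 10% mitochondrial UMIs, -0.0031 with cells weighted equally, -0.24 with clusters weighted and -0.16 at 30 UMIs per gene. In WTg, -0.50 was -0.30 thinned, -0.24 with 20 cells, -0.30 at 1000 UMIs, -0.086 with clusters weighted and -0.20 without the 8 members with stromal markers, a setting chosen after seeing the data. The neuroendocrine median in EL1, 0.24, was -0.10 with 20 cells, -0.078 with cells weighted equally and -0.18 with clusters weighted, and in WTg, -0.61, it was -0.20 without the HSP70 pair, -0.25 with other types left out first and -0.12 with clusters weighted. The share of WTg members with markers of another type, 20%, was 0 in both settings that leave cells out by those markers. The largest share of members in 1 cluster was 77.5% in EL1, in place of 50%, with no genes left out of clustering, and 27.5% in WTg, in place of 45.0%, at resolution 2. Igfbp7 and Col4a2 in WTg turned to -3.15 and -0.041 without the 8 cells. Apart from the settings that leave out cells or genes, the cause of these moves was not tested.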
